A study of Mus musculus with 4 samples.

Results

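Rab proteins are small GTPases that mark the membranes of the secretory and endocytic pathways. A Rab bound to GTP sits on its own compartment and recruits effectors such as tethers and motor adaptors, exchange factors (GEFs) load it with GTP, and GTPase-activating proteins (GAPs) switch it off. In the hepatocyte this traffic serves the secretion of plasma proteins and lipoproteins, the uptake and recycling of surface receptors, the delivery of transporters to the canalicular membrane, and autophagy. SHP (NR0B2), a nuclear receptor with no known hormone, lacks the domain by which such receptors bind DNA, so its ChIP-seq peaks mark places where other proteins hold it on chromatin. The genes described here are the protein-coding genes of the GENCODE M1 annotation of mm9 whose symbol is Rab or Rabl followed by a digit, without their interactors such as Rab11fip1 or Rab3ip. There are 61 of them among 22380 protein-coding genes. Their peaks were chosen by position, as the rows of the peak lists that lie within 5 kb of the gene body, and the family was selected on the presence of such peaks, so the number of Rab genes with a peak is a description and carries no test.

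SHP binding was measured in liver of wild-type male C57BL/6 mice of 8 to 12 weeks that had been fasted for 12 h and then injected in the tail vein with vehicle or with FGF19, an intestinal hormone of the fed state, at 1 mg/kg. Livers were taken 2 h later. For each treatment the material of 3 mice was pooled into 1 ChIP library, made with the SHP antibody sc-30169, and 1 input library, so neither group has replicates and no difference between them can be set against a replicate error. The SHP ChIP library held 15473647 tags with vehicle and 13444078 with FGF19 after removal of duplicates, and the lists hold 1508 and 3155 peaks. Pileup is the number of extended ChIP tags over the summit, the highest point of a peak, and fold enrichment is the ratio of pileup to the local input background, each with 1 tag added. Tags were extended to 240 bp with vehicle and to 260 bp with FGF19, and longer tags give larger pileups.

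Of the 61 Rab genes, 23 had an SHP peak within 5 kb in at least 1 list, 4 of them in both lists, 8 in the vehicle list only and 11 in the FGF19 list only. Rab10, Rab22a, Rab7 and Rabl2 were the genes with peaks in both. The other genes of the vehicle list were Rab1, Rab4b, Rab11b, Rab13, Rab21, Rab28, Rab37 and Rab40c, and those of the FGF19 list were Rab1b, Rab2a, Rab2b, Rab3d, Rab4a, Rab5c, Rab6, Rab24, Rab33b, Rab35 and Rab36. A peak in 1 list only passed the peak caller's q-value cutoff of 0.05 in that library, and signal below the cutoff in the other library was not analysed here. The vehicle list reached 12 Rab genes, 19.7% of the family (Wilson 95% interval 11.6 to 31.3), and 7.93% of all protein-coding genes. In the FGF19 list there were 15 Rab genes, 24.6% (15.5 to 36.7), beside 16.3% of all protein-coding genes. Over all protein-coding genes, 19.9% had a peak in either list, 4.31% in both, 3.62% in the vehicle list only and 12% in the FGF19 list only. The FGF19 list thus named 1.25 times as many Rab genes as the vehicle list, beside 2.06 times as many protein-coding genes. Shortened to as many peaks as the vehicle list has, the FGF19 list named 9 Rab genes, fewer than the 12 of the vehicle list. With only peaks at a -log10 q-value of at least 5 kept, the FGF19 list named 10 and the vehicle list 5. Rab genes were longer than the average gene, with a median gene length of 22683 bp against 15420.5 bp, which widens their reach. Intervals of this kind cover counting error only.

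The peaks lay at the promoters. Of the 28 Rab peaks in both lists together, 24 had their summit within 1 kb of a transcription start site (TSS) of the Rab gene itself, at 20 genes. By gene, such a summit was present at 11 of the 12 Rab genes of the vehicle list, 18% of the family, against 5.52% of all protein-coding genes. With FGF19 it was present at 13 of 15 genes, 21.3% of the family, against 12.5% of all genes. All 13 of those FGF19 summits lay within 250 bp of the TSS, as did 10 of the 11 vehicle summits. Of the summits at all protein-coding promoters, 83.7% with FGF19 and 81.9% with vehicle lay as near. Distances were taken from the nearest of a gene's annotated TSS. The median was 36 bp with FGF19 and 70 bp with vehicle, where the summits at all protein-coding promoters had medians of 96 bp and 102 bp. Summits fell on both sides of that TSS, 8 upstream and 5 at or downstream of it with FGF19 and 6 upstream and 5 downstream with vehicle. At all protein-coding promoters, 49.5% of FGF19 and 55.4% of vehicle summits lay upstream. Measured from the gene start, the FGF19 summits of Rab2b, Rab36, Rab3d and Rab4a lay downstream instead, by 172, 144, 69 and 50 bp. No other Rab summit changed side. In the annotation, 13 of the 24 summits lay in an exon of the Rab gene, 1 in an intron and 10 outside the gene.

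**Figure D1:**
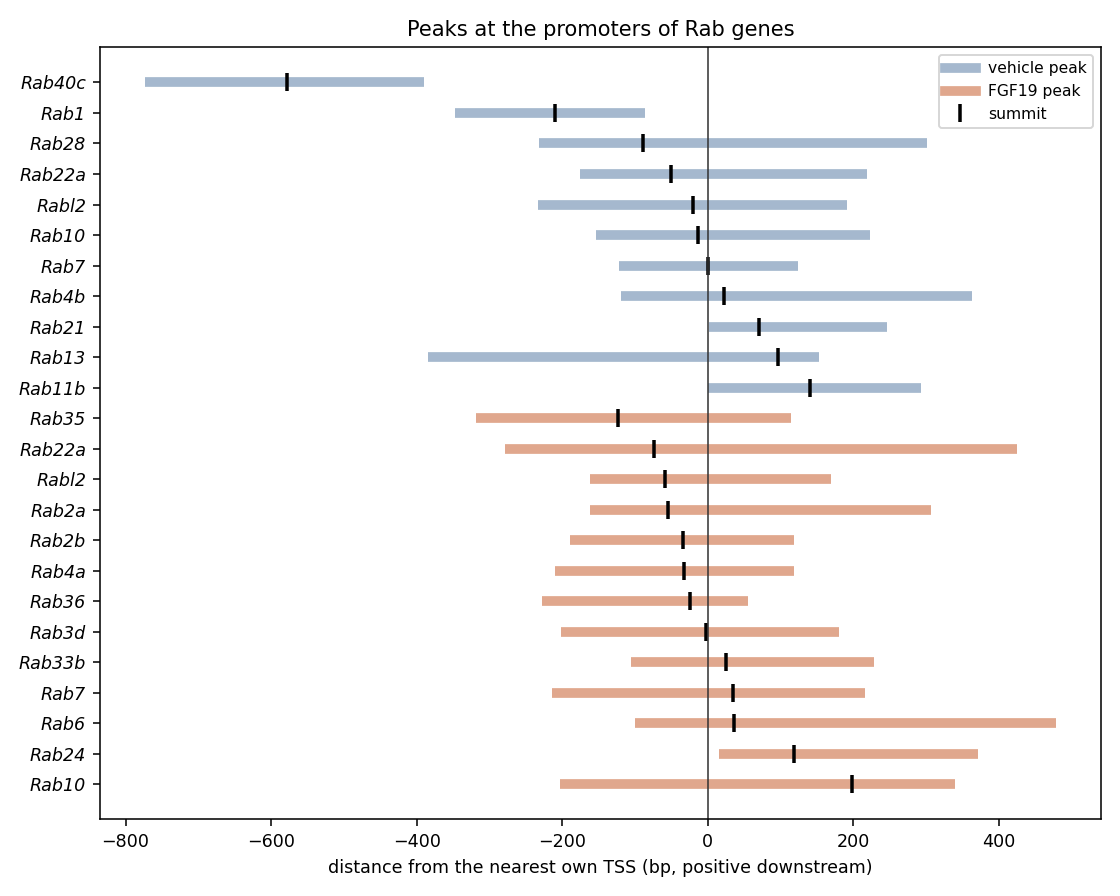
SHP peaks at the promoters of Rab genes. Each bar is a peak from its start to its end in bp from the nearest TSS of the Rab gene, positive downstream, and the black tick is its summit. The 11 vehicle peaks and 13 FGF19 peaks gather around 0, and the Rab40c peak, with its summit 578 bp upstream, lies farthest out.

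The stretches below are the parts of the 201 bp around the summit that lie outside annotated untranslated regions, for members taken by fold enrichment within each class: the 4 genes common to both lists, the first 4 of those in the FGF19 list only and the first 2 of those in the vehicle list only. They are shown because they hold bases within 100 bp of the summits. Those of Rabl2, Rab22a and Rab11b contain the summit, and the others do not reach it. They were read from mm9 on the strand of the gene, 5′ to 3′, and capitals mark exact matches to any of the sequences searched, which are spelled out further on. Rabl2 is given on the minus strand of chr15:89422355-89422474, Rab22a on the plus strand of chr2:173485087-173485260, Rab7 on the minus strand of chr6:87995265-87995363, and each of these ends at the base before the annotated gene start. Rab4a, on the plus strand of chr8:126329835-126329884, Rab3d, on the minus strand of chr9:21722637-21722667, and Rab4b, on the minus strand of chr7:27963916-27963973, are shorter because their summits lie beside or in the first exon. The stretch of Rab11b, on the minus strand of chr17:33896985-33897185, lies in an intron and begins 290 bp downstream of the gene start. Rab10, Rab2b and Rab36 were also taken, and no base of their windows lay outside untranslated regions. Rab35, Rab2a and Rab6, next in the FGF19 class, are not shown although their fold enrichments exceed that of Rab11b.
Rabl2: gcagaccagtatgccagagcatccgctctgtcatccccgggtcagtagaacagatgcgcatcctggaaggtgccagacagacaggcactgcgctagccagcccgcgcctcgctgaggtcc
Rab22a: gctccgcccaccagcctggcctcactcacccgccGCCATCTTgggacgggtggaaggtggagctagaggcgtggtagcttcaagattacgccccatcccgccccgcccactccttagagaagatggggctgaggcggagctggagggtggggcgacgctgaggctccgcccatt
Rab7: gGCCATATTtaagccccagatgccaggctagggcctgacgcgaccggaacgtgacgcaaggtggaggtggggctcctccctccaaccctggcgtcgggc
Rab4a: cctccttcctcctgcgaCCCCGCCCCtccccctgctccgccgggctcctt
Rab3d: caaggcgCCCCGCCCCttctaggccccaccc
Rab4b: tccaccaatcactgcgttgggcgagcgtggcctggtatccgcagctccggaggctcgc
Rab11b: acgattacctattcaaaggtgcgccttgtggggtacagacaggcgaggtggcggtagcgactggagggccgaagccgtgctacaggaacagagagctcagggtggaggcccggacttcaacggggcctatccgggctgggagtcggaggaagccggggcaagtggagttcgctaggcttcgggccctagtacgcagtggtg

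Both lists had a peak over the promoter at 4 Rab genes, and they went in different directions. Rabl2, a Rab-like GTPase of intraflagellar transport in cilia and sperm tails, lies on chromosome 15 from 89412964 to 89422354 on the minus strand. Its vehicle peak, from 89422163 to 89422587, had a pileup of 48 tags (exact Poisson 95% interval 35.39 to 63.64), a local background of 3.00 tags and a fold enrichment of 12.3. Its FGF19 peak, from 89422185 to 89422516, had a pileup of 21 tags (13.0 to 32.1), a background of 6.19 and a fold enrichment of 3.06. The vehicle value is the highest of any Rab peak and the 27th highest of the 1508 vehicle peaks. On the log2 scale the fold enrichment fell by 2.00 from vehicle to FGF19, the largest fall among the 678 regions common to both lists. The pileup per 1000000 tags fell by 0.99 on the log2 scale, again the largest fall of the 678. The summits were 39 bp apart, both upstream of the gene start. The Poisson intervals cover the counting of tags only, and a summit is the maximum of its peak, so pileups there are high by choice.

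Rab22a and Rab10 went the other way. Rab22a works on early endosomes and in the recycling of cargo taken up without clathrin, and its gene lies on chromosome 2 from 173485261 to 173532844. Its pileup was 25 tags with vehicle (16.18 to 36.9) and 37 with FGF19 (26.05 to 51.0), over backgrounds of 6.22 and 5.65. The fold enrichment went from 3.60 in the vehicle list to 5.71 in the FGF19 list, which is 0.67 on the log2 scale. Rab10 carries GLUT4 vesicles to the plasma membrane in fat cells and acts in basolateral sorting, and its gene lies on chromosome 12 from 3247430 to 3309969. There the pileup was 25 tags with vehicle (16.18 to 36.9) and 39 with FGF19 (27.73 to 53.31), over backgrounds of 6.70 and 6.66, and the fold enrichment was 3.38 and 5.22, higher with FGF19 by 0.63 on the log2 scale. Among the 16 FGF19 Rab peaks, those of Rab22a and Rab10 had the highest and the third highest fold enrichment. The pileup intervals of vehicle and FGF19 overlap at both genes. At Rab10 the summits were 211 bp apart, 13 bp upstream of the TSS with vehicle and 198 bp downstream with FGF19, and at Rab22a they were 23 bp apart.

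At Rab7 the measures disagreed. Rab7 drives the passage of late endosomes to lysosomes and the fusion of autophagosomes with them, and its gene lies on chromosome 6 from 87949100 to 87995264. The pileup was 26 tags with vehicle (16.98 to 38.1) and 31 with FGF19 (21.06 to 44.0), while the local background was 5.76 with vehicle and 10.8 with FGF19. From 3.99 in the vehicle list to 2.70 in the FGF19 list, fold enrichment fell by 0.56 on the log2 scale, while the pileup per 1000000 tags was higher by 0.46 with FGF19. Across all 678 common regions, the log2 ratio of FGF19 over vehicle had a median of -0.02 for fold enrichment (quartiles -0.36 and 0.32) and of 0.20 for pileup per 1000000 tags (-0.02 and 0.43). Rab7 lies below the lower quartile by the former measure and above the upper quartile by the latter. Of the Rab peaks, 33.3% of the vehicle list (13.8 to 60.9) and 25% of the FGF19 list (10.2 to 49.5) were common to both, against 45.5% and 21.8% of all peaks.

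**Figure D2:**
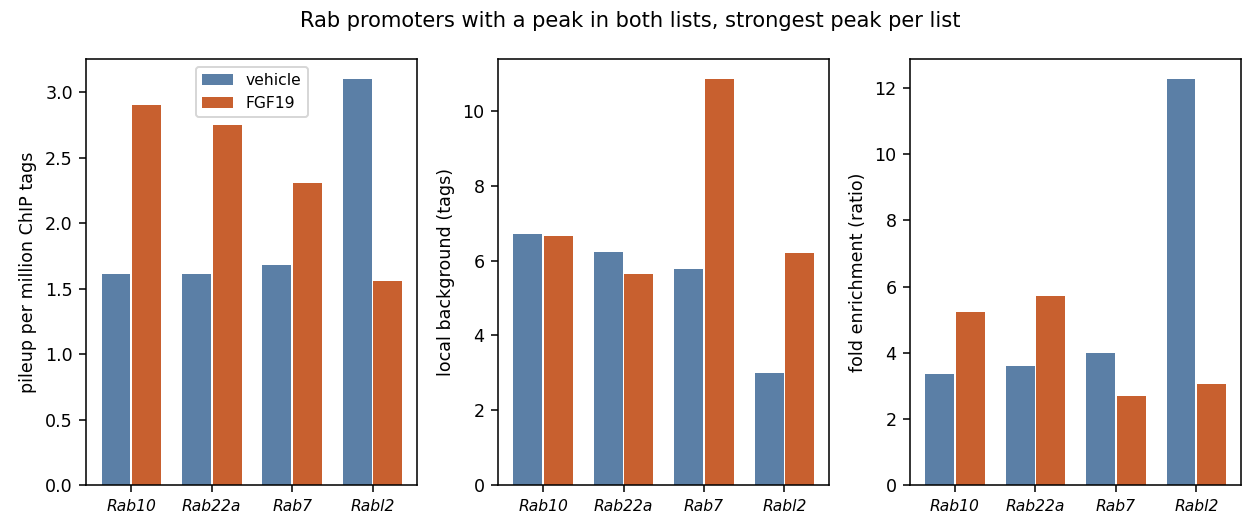
Pileup per 1000000 ChIP tags, local background in tags and fold enrichment as a ratio for the 4 Rab promoters with a peak in both lists, 1 pooled library per group and hence no error bars. Rab10 and Rab22a are higher with FGF19 by pileup and fold enrichment, Rabl2 is lower by both, and Rab7 is higher by pileup and lower by fold enrichment, beside a background of 10.8 tags.

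Of 12 Rabs of the ER and Golgi, 4 had a promoter peak with FGF19 only (Rab2a, Rab2b, Rab6 and Rab33b), 1 with vehicle only (Rab1) and 0 in both. The FGF19 list is the longer one and named more genes of any kind. Of all protein-coding genes, 12.5% had a promoter peak with FGF19, 5.52% with vehicle and 2.59% with both. By the wider rule of 5 kb from the gene body, 12% had a peak in the FGF19 list only and 3.62% in the vehicle list only. Rab2a and Rab2b, close paralogs that act between the Golgi and the ER, had FGF19 peaks on chromosome 4 from 8462629 to 8463098 and on chromosome 14 from 52898895 to 52899203. The pileup was 19 tags at Rab2a and 23 at Rab2b, and the fold enrichment was 4.51 and 4.93. Rab6, which returns vesicles from the Golgi to the ER, had a pileup of 30 and a fold enrichment of 4.27. Rab33b, a Golgi Rab that also binds the autophagy factor ATG16L1, had a pileup of 35 and a fold enrichment of 3.78 over a background of 8.52 tags. Rab1, which controls transport from the ER to the Golgi, had its vehicle peak on chromosome 11 from 20101088 to 20101349, with the summit 210 bp upstream of the gene start, a pileup of 31 and a fold enrichment of 3.62. The nearest FGF19 peak to Rab1 was 280891 bp away. For its paralog Rab1b the only peak was an FGF19 peak 4694 bp beyond the end of the gene, in the neighbouring gene Cnih2. Rab6b, Rab18, Rab19, Rab30, Rab33a and Rab43 had no peak.

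Rabs of early endosomes had promoter peaks at 4 of 9 genes, and 5 had a peak within 5 kb. Over all protein-coding genes the shares in either list were 15.4% and 19.9%. Besides Rab22a, the 5 genes were Rab4a, Rab4b, Rab21 and Rab5c, of which Rab5c had no promoter peak. Rab4a and Rab4b are paralogs for the fast return of receptors to the surface, and each was in a different list. Rab4a had an FGF19 peak on chromosome 8 from 126329758 to 126330087, with a pileup of 22 and a fold enrichment of 4.72, and the nearest vehicle peak was 28416 bp away. Rab4b had a vehicle peak on chromosome 7 from 27963532 to 27964014, with a pileup of 28 and a fold enrichment of 4.44, and the nearest FGF19 peak was 35635 bp away. Rab21, a Rab of integrin endocytosis, had a vehicle peak with a pileup of 22 and a fold enrichment of 3.41. For Rab5c, which fuses early endosomes, both FGF19 peaks lay beyond the end of the gene, at the TSS of neighbours. Rab5a and Rab5b, the other Rab5 paralogs, had no peak, nor did Rab20 and Rab31.

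Rabs of recycling endosomes and of delivery to the plasma membrane had promoter peaks at 4 of 12 genes. Over all protein-coding genes, 15.4% had one in either list. The 4 were Rab10 in both lists, Rab11b and Rab13 with vehicle and Rab35 with FGF19. Rab11b, a Rab of the recycling endosome, had a vehicle peak with a pileup of 26 and a fold enrichment of 4.13, 140 bp downstream of a TSS. Its paralog Rab11a had no peak. Rab13, a Rab of epithelial junctions, had the lowest fold enrichment of the vehicle Rab peaks, 2.74, with a pileup of 28 over a background of 9.57 tags. Rab35, which recycles cargo to the surface and acts at the end of cell division, had an FGF19 peak on chromosome 5 from 116081620 to 116082052 with a pileup of 25 and a fold enrichment of 4.61. Rab8a, Rab8b, Rab12, Rab14, Rab15, Rab17 and Rab25 had no peak.

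Rabs of late endosomes, lysosomes and autophagosomes had promoter peaks at 3 of 9 genes, beside 15.4% of all protein-coding genes in either list. All 3 were in the FGF19 list, and Rab7 was in the vehicle list too. Rab36, which places late endosomes and lysosomes in the cell, had an FGF19 peak on chromosome 10 from 74499743 to 74500026. Its fold enrichment of 5.49 is the second highest of the FGF19 Rab peaks, but rests on a pileup of 18 tags (10.67 to 28.45) over a background of 2.46, the lowest background of any Rab peak. Rab24, a Rab linked to autophagosome clearance, had a pileup of 21 and a fold enrichment of 3.64. Rab7l1, Rab9, Rab9b, Rab34, Rab39 and Rab39b had no peak.

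In the remaining groups, 1 of 10 genes of regulated secretion, 2 of 5 cilium genes and 1 of 2 Rab40 genes had a promoter peak. Over all protein-coding genes, 15.4% had one in either list. Among 10 Rabs of regulated secretion and lysosome-related organelles, Rab3d, which governs granule exocytosis in secretory cells, was the only member with a promoter peak. It was an FGF19 peak on chromosome 9 from 21722385 to 21722767 with a pileup of 36, among the highest pileups of the family, and a fold enrichment of 4.64. Rab3a, Rab3b, Rab3c, Rab26, Rab27a, Rab27b, Rab32 and Rab38 had none, and Rab37 is described below. Among 5 cilium genes, Rab28 had a vehicle peak with a pileup of 20 and a fold enrichment of 3.90 beside the Rabl2 peaks, and Rab23, Rabl3 and Rabl5 had no peak. Rab40c, a Rab with a SOCS box that joins ubiquitin ligases, had a vehicle peak with a pileup of 26 and a fold enrichment of 3.32, and Rab40b had none. The symbols Rab42-ps and Rab44 belong to no group and had no peak.

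**Figure D3:**
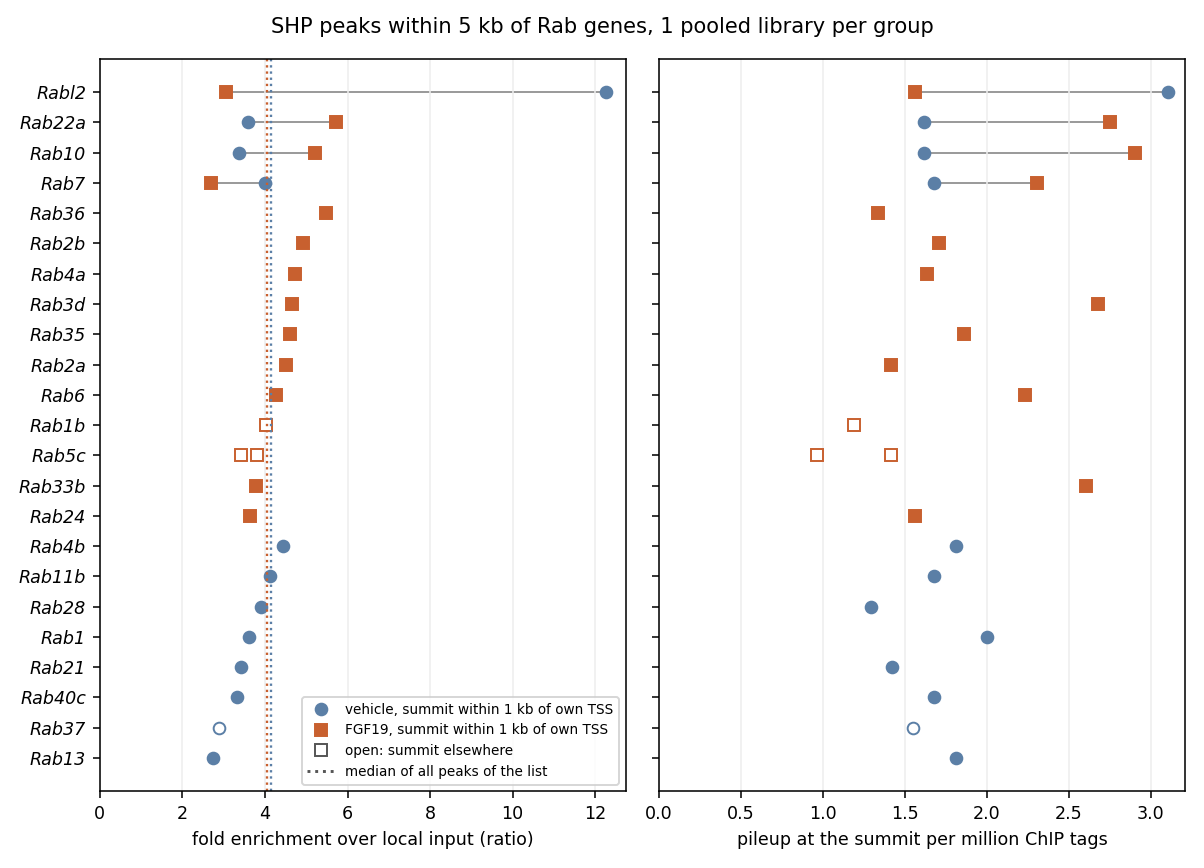
All 28 peaks within 5 kb of Rab genes, with fold enrichment as a ratio (left) and pileup per 1000000 ChIP tags (right), 1 point per peak. Circles are vehicle and squares FGF19, filled where the summit is within 1 kb of a TSS of the Rab gene, grey lines join genes with both, and dotted lines are the medians of all peaks of each list. The Rabl2 vehicle peak stands alone at a fold enrichment of 12.3, and 9 of the 16 FGF19 peaks but 2 of the 12 vehicle peaks lie above their list's median.

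As a set, the Rab peaks differed between the lists in fold enrichment and not in the same way in pileup. With FGF19 the median fold enrichment of the 16 Rab peaks was 4.39 (quartiles 3.75 and 4.77), and 9 of the 16 lay above 4.05, the median of all FGF19 peaks. With vehicle the median of the 12 Rab peaks was 3.61 (quartiles 3.36 and 4.03), and 2 of the 12, Rabl2 and Rab4b, lay above 4.14, the median of all vehicle peaks. At the promoters alone the medians were 4.61 with FGF19 and 3.62 with vehicle, where all peaks at protein-coding promoters had medians of 3.97 in both lists. By pileup the order was turned: 9 of 12 vehicle Rab peaks but 7 of 16 FGF19 Rab peaks lay above 24 tags, the median of all peaks in both lists. The median local background was 5.99 tags at vehicle Rab peaks and 4.84 at FGF19 Rab peaks, against 4.84 and 5.25 over all peaks of those lists. The part of this background in the fold enrichments was not tested. The weakest Rab peak was that of Rab5c nearest the gene, with a pileup of 13 and a -log10 q-value of 2.02.

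Not every peak near a Rab gene belongs to it alone. At 6 of the 20 Rab genes with a promoter peak the summit also lay within 1 kb of the TSS of another gene. The vehicle peak of Rab13 had its summit 97 bp downstream of the Rab13 start and 141 bp upstream of the start of Rps27, a ribosomal protein gene on the other strand. The Rab24 summit with FGF19 was 194 bp upstream of Prelid1, which encodes a mitochondrial lipid-transfer protein. The Rab2b summit lay within the annotated gene Tox4, which encodes an HMG-box protein, 192 bp upstream of the nearest of its TSS. The Rab6 summit was 192 bp downstream of a start of Mrpl48, a mitochondrial ribosomal protein gene. Rab22a shares its promoter with a transcript of Ppp4r1l-ps, annotated as lincRNA, and Rab11b with the lincRNA Gm17251. Which of the genes at such a promoter a peak relates to cannot be told apart from peak positions.

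At 3 more genes, Rab1b, Rab5c and Rab37, the peaks lay outside the gene and away from its TSS. The vehicle peak counted for Rab37, a Rab of secretory granules, lay 979 bp beyond its end, with the summit 43 bp downstream of the start of Slc9a3r1, which encodes the scaffold NHERF1. The FGF19 peaks counted for Rab5c had summits 9 bp downstream of the start of Kat2a, a histone acetyltransferase, and 170 bp upstream of the start of Hspb9, a small heat shock protein. Pileup and fold enrichment were 24 and 2.89 at the Rab37 peak and 16 and 4.02 at the Rab1b peak. For Rab5c they were 19 and 3.82 at Kat2a and 13 and 3.42 at Hspb9. Just outside the limit, Rab33a lay 5586 bp from an FGF19 peak and Rab8b 8547 bp. The 38 Rab genes without a peak had a median gap of 78128 bp to the nearest peak of either list, and 23 of them had none within 50 kb.

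Exact matches to 9 short sequences were counted on either strand in the 201 bp around each summit. They were AANATGGC, attributed to YY1 or SREBP-2 and called YY1/SRE here, CCCCGCCCC (SP1), ATTGGC (NF-Y), CGCATGCG (the core of the NRF1 site), CTCGCGAG (the core of the ZBTB33 site), CCGGAAGT (ETS factors), TGACGTCA (CRE), CACGTG (the E-box) and AGGTCA (nuclear receptors), and none of these spellings contains another. YY1/SRE was found at 5 of the 20 Rab genes with a promoter peak (25%): in 4 of 11 vehicle windows (Rab4b, Rab7, Rab13 and Rab22a) and 2 of 13 FGF19 windows (Rab10 and Rab22a). It was present in 12% of all vehicle and 8.24% of all FGF19 peaks at protein-coding promoters, and in windows of the same length at 5.72% of the starts of all protein-coding genes and 9.84% of the starts of all 61 Rab genes. SP1 was found in 5 of 13 FGF19 windows and 1 of 11 vehicle windows, beside 17.1% and 17.4% of all promoter peaks, 11.9% of the starts of all genes and 21.3% of the starts of Rab genes. ZBTB33 was found in 2 FGF19 windows (Rab10 and Rab33b), beside 2.54% of FGF19 promoter peaks. NF-Y was found in 3 vehicle windows and 1 FGF19 window, NRF1, ETS and the E-box in 1 window each, and CRE and AGGTCA in 0, beside 7.61% and 5.67% of promoter peaks for AGGTCA. For the sequences not yet given, the vehicle and FGF19 promoter peaks held NF-Y in 12.2% and 11.8%, NRF1 in 2.32% and 2.69%, ETS in 4.55% and 4.12%, the E-box in 7.24% and 6.54%, and CRE in 1.39% and 2.06%. With so few windows these counts describe the members only.

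The 30 bases around each YY1/SRE match are given to show the sequence on either side of it, read 5′ to 3′ in the direction of AANATGGC with the match in capitals. The likeness of the capitals was set by the search. Coordinates are those of the 30 bases, and distances run from the gene start to the first base of the match on the gene's strand. The match of Rab22a, in chr2:173485110-173485139, begins 140 bp upstream and lies in the window of both lists. That of Rab7, in chr6:87995344-87995373, begins 98 bp upstream and lies in the vehicle window. The matches of Rab4b at chr7:27963778-27963807, Rab13 at chr3:90017626-90017655 and Rab10 at chr12:3309682-3309711 begin 119, 20 and 269 bp downstream of the gene start, in stretches that overlap annotated untranslated sequence.
Rab10: tcggtcgggacAAAATGGCctcccctcccc
Rab13: aagaccttccgAAGATGGCgaagcaacacg
Rab22a: ccacccgtcccAAGATGGCggcgggtgagt
Rab4b: ctgagggccgcAATATGGCgccgcagccgc
Rab7: tctggggcttaAATATGGCcgtttctagat

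The SP1 matches, in the direction of CCCCGCCCC, are those of Rab28 at chr5:42099415-42099444, found in the vehicle window, and of Rab33b at chr3:51287873-51287902, Rab35 at chr5:116081895-116081924, Rab36 at chr10:74499948-74499977, Rab3d at chr9:21722641-21722670 and Rab4a at chr8:126329842-126329871, found in FGF19 windows. They are shown because they were the commonest match among the FGF19 members. They lay 15 to 96 bp from the summit.
Rab28: ccccggaaagCCCCGCCCCtagcgtcactc
Rab33b: ctctctctctCCCCGCCCCcgggggctgcg
Rab35: ctccttcccgCCCCGCCCCgccactgcgca
Rab36: agggtccagaCCCCGCCCCcgacgtcggga
Rab3d: tctcaaggcgCCCCGCCCCttctaggcccc
Rab4a: cctcctgcgaCCCCGCCCCtccccctgctc

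The windows were rich in G and C. The median GC content was 67.7% in the 11 vehicle windows (49.8 to 75.6) and 72.1% in the 13 FGF19 windows (56.2 to 77.6), beside 66.7% and 69.7% in all promoter peaks of those lists and 58.7% at the starts of all protein-coding genes. The starts of all 61 Rab genes, with or without a peak, had a median of 64.7%. Rab13, whose promoter is shared with Rps27, had the lowest value and Rab2a the highest.

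The proteins that load, switch off and serve the Rabs were examined in the same lists. Of 127 such genes, 20 had a peak within 5 kb with vehicle and 35 with FGF19, which is 15.7% (10.4 to 23.1) and 27.6% (20.5 to 35.9). Over all protein-coding genes the shares were 7.93% and 16.3%. The median gene length was 45428 bp for these 127 genes against 15420.5 bp over all protein-coding genes, which widens their reach. At an own TSS there were 15 genes with vehicle (11.8%), 27 with FGF19 (21.3%) and 6 with both (4.72%), beside 5.52%, 12.5% and 2.59% of all protein-coding genes. Among effectors, 11 of 39 genes had a promoter peak with FGF19 and 2 with vehicle, and among GAPs 6 of 38 in each list. GEFs stood at 9 of 42 with FGF19 and 6 with vehicle, and the prenylation and recycling machinery at 1 of 8, Rabggtb, in both lists.

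Rabggtb encodes the catalytic subunit of the geranylgeranyl transferase that puts the lipid anchor on Rab proteins. Its promoter peak had a pileup of 55 and a fold enrichment of 6.47 with vehicle, against 29 and 3.43 with FGF19. At Tbc1d17, a GAP of the TBC family, a vehicle peak with a pileup of 75 and a fold enrichment of 7.19 faced FGF19 peaks with pileups of 47 and 21 and fold enrichments of 4.96 and 3.06. Both genes thus had the higher value with vehicle, as Rabl2 did. Dennd4a, a GEF of Rab10, had a pileup of 25 and a fold enrichment of 4.28 with vehicle and of 26 and 5.36 with FGF19. The other regulators with the largest fold enrichments were in 1 list only. With FGF19 they were Vps16, a subunit of the tethering complexes that serve Rab5 and Rab7 (5.31), Rabep2, an effector of Rab5 (4.93), and Rilpl1, of the RILP family (4.87). With vehicle they were the GAPs Sgsm3 (4.91) and Tbc1d16 (4.81). Several of these rest on few tags: the pileup was 29 at Vps16, 23 at Rabep2, 13 at Rilpl1, 18 at Sgsm3 and 16 at Tbc1d16.

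Other small GTPases of the Ras superfamily were counted in the same way. Within 5 kb, 5 of 28 Arf and Arl genes had a peak with vehicle and 11 with FGF19, which is 17.9% (7.88 to 35.6) and 39.3% (23.6 to 57.6). For 22 Ras genes the shares were 9.09% (2.53 to 27.8) and 36.4% (19.7 to 57). Over all protein-coding genes they were 7.93% and 16.3%. Differences between the families were not tested.

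**Figure D4:**
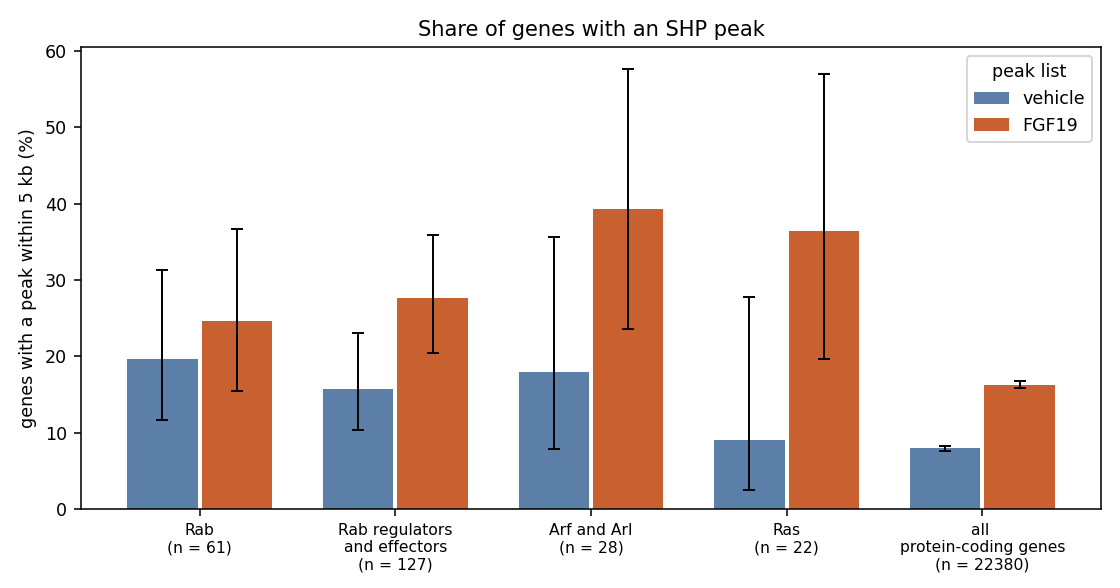
Percentage of genes with an SHP peak within 5 kb of the gene body in the vehicle and FGF19 lists, for Rab genes, their regulators and effectors, other small GTPase families and all protein-coding genes. Bars are percentages and error bars are Wilson 95% intervals, which cover counting error only. The Rab bars stand at 19.7% and 24.6%, beside 7.93% and 16.3% for all protein-coding genes.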

How the data were processed

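SHP ChIP-seq peak lists from mouse liver were analysed, 1 for vehicle and 1 for FGF19, each from 1 ChIP library and 1 input library of pooled material from 3 mice. The submitters' processing notes name CASAVA 1.8.2, Bowtie 1.0.0, MACS2 2.0.10.20130501 and mm9. The pileup that the authors deposited is a signal of extended ChIP tags at the summit, unscaled because each ChIP library was smaller than its input. The deposited fold enrichment is a ratio over the local input background, and the deposited -log10 p-value and q-value are as the peak caller gave them. At most 1 tag per position and strand was kept by the authors. The q-value cutoff was 0.05.

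From these lists, peaks were related to GENCODE M1 genes and TSS, whose build is that of the peaks: every peak lay within its chromosome in the reference. Peaks sharing at least 1 bp were common, and where several peaks made up a common region the strongest of each list was used. The background was worked out as (pileup + 1) / fold enrichment - 1. Every Rab gene with a peak is named with its values, and at most 8 regulators with the largest fold enrichment at an own TSS. The stretches shown follow a fixed rule by fold enrichment, cut at untranslated regions, and the stretches of 30 bases were chosen after the matches were seen. The members and lists were chosen with earlier results of these data known. With 1 library per group no test was run. All 10 checks on simulated peaks and sequences, with 200 genes, gave the planted answer. Python 3.11.15, numpy 2.4.6, scipy 1.17.1 and matplotlib 3.10.9 were used. Reads, signal below the cutoff and gene expression were not analysed here, and 1 family of the comparison lists is not reported here.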

Additional observations from a re-analysis of the deposited data

How the results depend on the processing

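Of 44 recomputed values, 35 stayed within 1.5 times the count, or within the spread of the value, reported. At a -log10 q-value of at least 5 the vehicle list named 5 Rab genes in place of 12 and the FGF19 list 10 in place of 15. None was in both lists. At a fold enrichment of at least 4 there were 3 with vehicle, 10 with FGF19 and 0 in both. With the FGF19 list shortened to as many peaks as the vehicle list has, it named 9 Rab genes in place of 15, which is below the 12 of the vehicle list, and 2 were in both. Over all Rab peaks the median pileup per 1000000 tags was 1.68 with vehicle and 1.67 with FGF19, so the higher median fold enrichment with FGF19 was not seen there. At the promoter peaks alone the medians were 1.68 with vehicle and 1.86 with FGF19, from pileups of 26 and 25 tags. The median log2 ratio of fold enrichment at the 4 common promoters was 0.03. By pileup per 1000000 tags the median was 0.61, and by -log10 p-value 0.29. The median for fold enrichment became -0.56 when only the 3 with summits at most 100 bp apart were used, since Rab10 then drops out. The other distances, the single nearest TSS and the gene start alone moved no count by more than 1.5 times. Depth limits the statements: pileups of 13 to 48 tags have wide counting intervals, and a peak missing from 1 list is not shown to be absent.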
